A study of Mus musculus with 4 samples.

Results

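The 10 genes described here encode the enzymes that make and break down prostaglandins, thromboxane and leukotrienes: Ptgs1, Ptgs2, Ptges, Hpgds, Tbxas1, Alox5, Alox5ap, Ltc4s, Alox15 and Hpgd. They were taken by symbol, and all 10 were among the 32285 genes of the deposited count table. These lipid signals, the eicosanoids, are made from arachidonic acid that phospholipases release from membranes. The cyclooxygenases turn it into prostaglandin H, which terminal synthases make into single prostaglandins or thromboxane, while 5-lipoxygenase with its helper protein opens the leukotriene branch. In the ovary, prostaglandins made after the ovulatory hormone signal are needed for the follicle to rupture, and granulosa cells are a known source of them.

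The measured cells were viable CD45+ leukocytes, sorted from ovaries of C57BL/6J females at an age of 10 to 12 weeks. Ovaries of 5 mice given gonadotropin and of 5 mice given saline, labelled untreated, were taken 48 h after the treatment. The hormone preparation and dose are not given in the sources used here. A hashtag antibody marked the cells of each animal before the 5 animals of a group went into 1 droplet library together, so the treatment and the library cannot be told apart. The mouse was the replicate, and mice are numbered 1 to 5 in each group as names only.

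The kept cells numbered 2423 in the gonadotropin and 2495 in the untreated group, with 290 to 828 and 296 to 726 cells per mouse. Their median unique molecular identifiers (UMIs, counted RNA molecules) were 7034 and 7664 per cell, and the mice held 2608262 to 7097779 and 2559097 to 6500466 UMIs. Myeloid cells made up 15.8% ± 2.69 of the kept cells in gonadotropin mice and 9.55% ± 2.83 in untreated mice (SD, n = 5 each). Markers of granulosa, cumulus and stromal cells were at or near 0, at 0.704 to 13.3 CPM in gonadotropin and 0 to 1.95 CPM (UMIs scaled to the same total in each sum) in untreated mice for the summed granulosa list. Luteal and theca markers summed to 5.75 to 13.6 CPM in gonadotropin and 3.43 to 47.3 CPM in untreated mice. The epithelial list stood at 0.490 to 7.67 and 7.08 to 15.6 CPM. Erythrocyte markers, from 47.3 to 19998 CPM in gonadotropin mice and from 4.30 to 6.14 CPM in untreated mice, also differed between the pools. Of the 4918 kept cells 51 stayed unnamed and 21, all from gonadotropin mice, were erythrocyte-like, and 4 barcode sequences occurred in both libraries. Among the unnamed cells, 41 formed a cluster whose best-scoring set was that of conventional type 1 dendritic cells (cDC1), with luteal and theca markers close to it. The unnamed cells, with 137 UMIs of Alox5ap, entered neither the myeloid nor the lymphoid sums.

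Levels are given first by cell type, as CPM of all UMIs summed over the cells of a type in both groups. Types were found by clustering without the 10 genes and without 51 other genes of the pathway, and were named by fixed markers with names ending in "like". Because clusters come from the same cells, the levels are a description and carry no test. Intervals are 95% Poisson intervals for CPM and Clopper-Pearson intervals for shares, and both cover counting error only. B cell-like cells, which are not known as a source of most of these enzymes, serve to show the share of cells that reads from other cells can give. Their median depth was 5930 UMIs, against 3974 in neutrophil-like, 12966 in classical monocyte-like, 22182 in Fn1 macrophage-like and 19329 in peritoneal-type macrophage-like cells. Mrc1 Stab1 macrophage-like (1768), mast cell-like (2055) and Trem2-type macrophage-like cells (2201) were shallower. At the same CPM fewer of their cells can show a UMI.

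**Figure D1:**
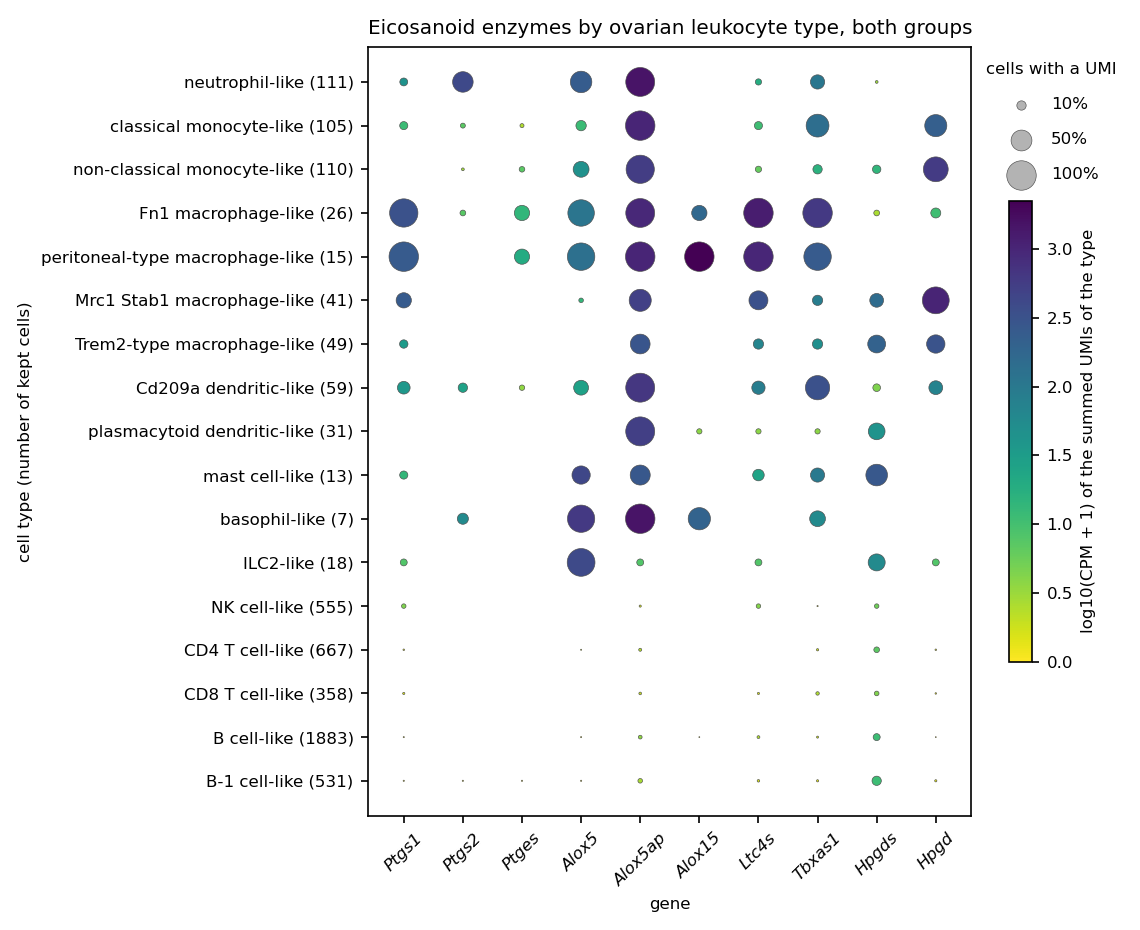
Level and share of cells with a UMI for the 10 genes in the leukocyte types of both groups together. Each row is a type with its number of kept cells, each column a gene; colour is log10(CPM + 1) and circle area follows the percent of cells with a UMI. Ptgs1 and Ltc4s are darkest in Fn1 and peritoneal-type macrophage-like cells, Ptgs2 in neutrophil-like cells, Alox15 in peritoneal-type macrophage-like cells and Hpgd in Mrc1 Stab1 macrophage-like cells.

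The pair of cyclooxygenase genes had their highest levels in different cell types. Ptgs1, the constitutive cyclooxygenase (chromosome 2, 36216742 to 36258593, GRCm38.p6), reached 321 CPM (278 to 369) in 26 Fn1 macrophage-like, 252 CPM (200 to 315) in 15 peritoneal-type macrophage-like and 250 CPM (153 to 386) in 41 Mrc1 Stab1 macrophage-like cells. Those 3 levels overlapped in their intervals. The next type, neutrophil-like cells at 44.2 CPM (27.0 to 68.2), lay apart from them, and 11 of its 20 UMIs came from 1 cell. When each cell was gated by its own markers, the level in neutrophil-like cells was 16.5 CPM. UMIs of Ptgs1 were seen in 24 of 26 Fn1 cells (92.3%) and in 15 of 15 peritoneal-type cells, against 3 of 1883 B cell-like cells (0.159%).

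Ptgs2, the inducible cyclooxygenase (chromosome 1, 150100031 to 150108234), had its highest level in neutrophil-like cells. It stood at 409 CPM (352 to 472) in 111 neutrophil-like cells and at 25.4 CPM (17.0 to 36.4) in 59 Cd209a dendritic-like cells, with a basophil value resting on 2 UMIs in 1 cell between them. Of the neutrophil-like cells 54 (48.6%) held a UMI, and 36.9% did after each cell was thinned to 2000 UMIs with no cell left out. No B cell-like cell held one, which by a floor of 3 counts allows a share of cells with a UMI of up to 0.159%. All 29 UMIs in the dendritic-like cells came from 6 cells of untreated mice. Both cyclooxygenases were seen together in 4 of the 111 neutrophil-like cells, where Ptgs1 had 20 UMIs in all. Whether the genes avoid each other within these cells was not tested. Ptgs2os2, named as an opposite-strand gene of Ptgs2, was counted as a gene of its own. Its position was not compared with that of Ptgs2, and the sources used here do not state whether reads were counted by strand. Whether the genes share reads was thus not checked.

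The promoters of both cyclooxygenase genes and of Hpgds are shown because these 3 genes had their highest levels in macrophage, neutrophil and mast cell-like cells. Each runs from 250 bases before to 50 bases after the RefSeq start, 5′ to 3′ on the gene's strand (GRCm38.p6). Capitals mark matches, on either strand, to 6 motifs: the TATA box TATAAA, the GC box with the letters GGGCGG, the cAMP response element TGACGTCA, the NF-kB consensus, the ETS word GAGGAAGT and the palindromic C/EBP word TTGCGCAA. The windows of Ptgs1 and Hpgds lie inside the span annotated for the gene, downstream of its outermost start.
Ptgs1 (chr2:36230176-36230475, plus strand): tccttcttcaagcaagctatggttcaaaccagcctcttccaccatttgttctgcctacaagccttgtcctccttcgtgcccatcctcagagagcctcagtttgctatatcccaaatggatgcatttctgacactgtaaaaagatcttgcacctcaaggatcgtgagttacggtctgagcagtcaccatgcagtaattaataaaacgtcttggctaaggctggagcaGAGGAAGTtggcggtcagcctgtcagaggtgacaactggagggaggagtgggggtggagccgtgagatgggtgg
Ptgs2 (chr1:150099781-150100080, plus strand): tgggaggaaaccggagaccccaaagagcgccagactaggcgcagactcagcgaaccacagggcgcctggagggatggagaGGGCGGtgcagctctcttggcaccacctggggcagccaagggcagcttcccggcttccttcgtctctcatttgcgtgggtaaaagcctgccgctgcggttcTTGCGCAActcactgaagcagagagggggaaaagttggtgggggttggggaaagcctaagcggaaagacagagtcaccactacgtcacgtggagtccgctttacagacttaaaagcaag
Hpgds (chr6:65144681-65144980, minus strand): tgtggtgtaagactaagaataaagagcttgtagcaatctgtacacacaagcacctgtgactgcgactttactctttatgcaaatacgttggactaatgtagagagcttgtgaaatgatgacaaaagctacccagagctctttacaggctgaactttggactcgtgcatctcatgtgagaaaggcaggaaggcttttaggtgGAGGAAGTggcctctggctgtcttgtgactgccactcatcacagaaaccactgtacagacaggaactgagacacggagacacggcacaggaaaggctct

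The ETS word, which factors such as PU.1 of myeloid cells bind, occurred 24 bases before the start of Ptgs1 and 49 before that of Hpgds, and 3.20% of 32851 RefSeq mouse promoters of this length hold it. Ptgs2 had the GC box 170 bases before its start and the C/EBP word 69 before it. These occur in 35.7% and 0.183% of all promoters. Of the other genes, 2 had the TATA box letters (Tbxas1 and Hpgd) and 3 the GC box (Ptges, Alox5 and Hpgd), where 13.6% and 35.7% of all promoters do. The cAMP response element and the NF-kB consensus, held by 1.79% and 0.155% of all promoters, matched in none of the 8 promoters looked at. A match is a run of letters in this window and not a shown binding site. Of the 10 genes 8 had an entry; Alox5ap and Alox15 were without one.

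The terminal synthases behind the cyclooxygenases were spread over different myeloid cells. Tbxas1, thromboxane synthase, was highest in Fn1 macrophage-like cells at 614 CPM (554 to 680), all 26 of which held a UMI. Cd209a dendritic-like cells held 330 CPM and peritoneal-type macrophage-like cells 249 CPM, with overlapping intervals, and gated dendritic-like cells held 193 CPM. Ptgs1 and Tbxas1 were seen together in 24 of 26 Fn1 cells. Hpgds, the hematopoietic prostaglandin D synthase, was instead highest in 13 mast cell-like cells at 273 CPM (171 to 414), where 1 cell gave 11 of the 22 UMIs, and at 169 CPM in gated mast cell-like cells. Trem2-type macrophage-like cells held 204 CPM (132 to 302) and Mrc1 Stab1 cells 150 CPM (77.5 to 262), and these levels overlapped. In Fn1 macrophage-like cells Hpgds gave 1 UMI.

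Hpgds was also seen at a low level in lymphocytes. B cell-like and B-1 cell-like cells both stood at 10.3 CPM, CD4 T cell-like cells at 6.04 CPM and CD8 T cell-like cells at 3.29 CPM (1.64 to 5.89). A UMI was seen in 107 of 1883 B cell-like cells (5.68%), and in 1.62% after thinning to 2000 UMIs, for which 30 cells were too shallow. Classical monocyte-like cells, at more than the B cells' depth, held none in 105 cells. Ptges, the inducible prostaglandin E synthase, was near the limit of detection everywhere. It had 31 UMIs in 24 kept cells, with its highest level, 19.2 CPM (7.04 to 41.7), in peritoneal-type macrophage-like cells, and none in the 111 neutrophil-like cells that held most of the Ptgs2.

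The leukotriene branch was led by Alox5ap, the helper protein (FLAP) that presents arachidonic acid to 5-lipoxygenase. With 4972 UMIs in 619 kept cells it was the most abundant of the 10 genes. Neutrophil-like cells (1486 CPM) and basophil-like cells (1479 CPM) overlapped at the top, but with gated cells they stood at 1499 and 716 CPM. Classical monocyte-like (1017 CPM), peritoneal-type (997 CPM) and Fn1 macrophage-like cells (937 CPM) came next, and all 105 classical monocyte-like cells held a UMI. In B cell-like cells the level was 2.65 CPM and the share of cells 1.65%.

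Alox5, 5-lipoxygenase itself, followed another order. Basophil-like (626 CPM), mast cell-like (435 CPM) and innate lymphoid (ILC2-like) cells (399 CPM) overlapped at the top, although 18 of the 35 mast cell UMIs came from 1 cell and the basophils numbered 7. Neutrophil-like cells stood below them at 241 CPM (198 to 290), with a UMI in 59 of 111 cells (53.2%; 32.4% after thinning). With gated cells this order turned in part. ILC2-like cells stood at 211 CPM and mast cell-like cells at 56.2 CPM, below neutrophil-like cells at 255 CPM, while basophil-like cells stayed above them at 563 CPM. Peritoneal-type and Fn1 macrophage-like cells held 134 and 109 CPM, and classical monocyte-like cells 10.7 CPM. Both Alox5 and Alox5ap were seen in 57 of 111 neutrophil-like cells and in 6 of 7 basophil-like cells. Of 18 ILC2-like cells, 16 held Alox5 (88.9%; 55.6% after thinning), while Alox5ap was seen in 1. B cell-like cells with Alox5 made up 0.159%.

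Ltc4s, which joins leukotriene A4 with glutathione to give leukotriene C4, was spread over the types more like Ptgs1 than like Alox5. It reached 1198 CPM (1113 to 1288) in Fn1 and 981 CPM (874 to 1097) in peritoneal-type macrophage-like cells, and all 41 of these cells held a UMI. Mrc1 Stab1 cells held 325 CPM (212 to 476), and Cd209a dendritic-like cells 86.6 CPM, or 7.79 CPM when gated. The 7 basophil-like cells had none, but their interval reached 105 CPM, above the level in dendritic-like cells. Alox5, Alox5ap and Ltc4s were all seen in 21 of 26 Fn1 and 13 of 15 peritoneal-type cells, and in 2 of 111 neutrophil-like cells. Across the 21 types, the Pearson correlation of log2(CPM + 1) was 0.95 for Ltc4s with Ptgs1, 0.64 for Ltc4s with Alox5ap and 0.46 for Ltc4s with Alox5. It was 0.87 for Alox5ap with Tbxas1 and 0.26 for Ptgs1 with Ptgs2. The types share 2 libraries and differ in depth, so these are descriptions.

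Alox15, the 12/15-lipoxygenase known from resident peritoneal macrophages, was almost confined to 1 small cluster among the cells measured. The 15 peritoneal-type macrophage-like cells held 700 of its 815 UMIs in kept cells, at 2237 CPM (2074 to 2409), and each of them held at least 1, also after thinning. Basophil-like cells followed at 199 CPM (80.1 to 410), from 7 UMIs in 4 of 7 cells, and overlapped with Fn1 macrophage-like cells at 171 CPM (140 to 207). Of the Fn1 cells 7 of 26 held a UMI, and 62 of their 105 UMIs came from 1 cell. B cell-like cells had 2 UMIs in 1883 cells.

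Hpgd, the dehydrogenase that inactivates prostaglandins, had its highest levels in monocytes and in other macrophages than Ptgs1 and Ltc4s, apart from Mrc1 Stab1 cells. Its highest level was in Mrc1 Stab1 macrophage-like cells, at 1038 CPM (826 to 1286) and in 34 of 41 cells (82.9%). Ptgs1 was seen in 11 of the 41, at a median depth of 1768 UMIs, so this share is not set against that in Fn1 cells. Non-classical monocyte-like cells had 580 CPM (533 to 630) in 78 of 110 cells and no UMI of Ptgs1. Trem2-type macrophage-like cells (311 CPM) and classical monocyte-like cells (220 CPM) followed. Across the 21 types the Pearson correlation of Hpgd was 0.43 with Ptgs1 and 0.46 with Ltc4s. Fn1 macrophage-like cells held 9.78 CPM, and the peritoneal-type and neutrophil-like cells none. In B cell-like cells 2 UMIs were counted.

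For each gene with at least 50 UMIs, the 3 genes outside the pathway with the most similar levels over the 21 types were listed among 7840 genes. For Ptgs2 they were Ptgs2os2 (r = 0.93), Siglecf (0.88) and Gm16556 (0.87). Ltbp1, a latent TGF-beta binding protein, was closest to Alox15 (0.98), followed by Selp (0.92), which is itself among the markers that named the peritoneal-type cells, and Ednrb (0.89). Alox5ap was closest to Cd300a (0.95), Sort1 (0.95) and Fgd4 (0.94), and Tbxas1 to Ifitm2 (0.92), Fgd4 (0.90) and Ralb (0.89). Hpgd was closest to Slamf8 (0.92), Hfe (0.91) and Clec4b1 (0.90), and Ltc4s to Slc9a3r2 (0.89), Fcna (0.88) and S100a1 (0.88). Alox5 had Pygl (0.88), Mctp1 (0.83) and Ston2 (0.81), Ptgs1 had Cd14 (0.86), C1qa (0.85) and S100a1 (0.84), and Hpgds had Rapsn (0.81), Slco2b1 (0.79) and Dst (0.78).

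The first comparison asked whether the enzymes differed between gonadotropin and untreated ovaries over all CD45+ cells, summed per mouse. Alox5ap rose, and no other enzyme passed the test. In gonadotropin mice 1 to 5 it measured 92.4, 209, 215, 146 and 125 CPM, and in untreated mice 61.9, 73.5, 85.3, 101 and 116 CPM. Gonadotropin mouse 1 fell among the untreated mice and the other gonadotropin mice lay above all of them. The means were 158 ± 53.3 and 87.5 ± 21.5 CPM (SD, n = 5 each), a log2 fold change of 0.84 ± 0.22 (SE; edgeR quasi-likelihood test, Benjamini-Hochberg adjusted p = 0.0335). Of all 11266 genes tested 9.12% passed, 4.97% as higher, beside 1 of the 9 enzymes tested. Ptges had too few UMIs to be tested. The median log2 fold change of the 9 was 0.70, and that of all genes tested was -0.003. Apart from Hpgds, the enzymes tested had most of their UMIs in myeloid cells, while 86.4% of the kept cells were lymphoid. These medians thus compare unlike genes and are not read as a shift of the enzymes.

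Ptgs1, Ltc4s and Alox5 had positive fold changes that did not pass. Ptgs1 measured 2.81, 28.9, 27.8, 14.2 and 8.95 CPM in gonadotropin mice and 7.03, 2.12, 6.84, 4.38 and 5.02 CPM in untreated mice (log2 fold change 1.69 ± 0.51 SE, edgeR adjusted p = 0.0558). Ltc4s measured 6.55, 111, 108, 38.6 and 9.64 CPM in gonadotropin mice and 18.2, 5.78, 13.4, 5.97 and 19.0 CPM in untreated mice (2.04 ± 0.68, adjusted p = 0.0758). For both genes, gonadotropin mice 2, 3 and 4 lay above every untreated mouse and mouse 1 did not. Alox5 measured 11.0, 15.6, 19.8, 12.7 and 7.23 CPM in gonadotropin mice and 8.49, 10.2, 10.1, 5.58 and 5.80 CPM in untreated mice (0.70 ± 0.25, adjusted p = 0.0984). Ptgs1 passed by DESeq2 (adjusted p = 0.0106), and by edgeR without a filter on low counts (0.0269) and with all single-hashtag barcodes (0.0495), and Ltc4s passed without a filter (0.0376). Without gonadotropin mouse 1 both passed by edgeR, at 0.00954 for Ptgs1 and 0.0249 for Ltc4s, and Alox5 did without gonadotropin mouse 5 (0.0489).

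The other enzymes overlapped widely. Tbxas1 had 44.9 ± 26.4 CPM in gonadotropin and 21.5 ± 12.3 CPM in untreated mice, and Hpgd 32.1 ± 4.71 and 26.2 ± 10.7 CPM (SD, n = 5 each; edgeR adjusted p = 0.216 and 0.436). Ptgs2 stood at 5.75 ± 4.21 and 5.19 ± 1.93 CPM, Hpgds at 10.4 ± 2.07 and 11.2 ± 3.46 CPM, and Alox15 at 16.9 ± 16.4 and 21.3 ± 20.1 CPM. Their log2 fold changes were 0.25 ± 0.46, -0.06 ± 0.22 and -0.54 ± 0.70 (SE).

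**Figure D2:**
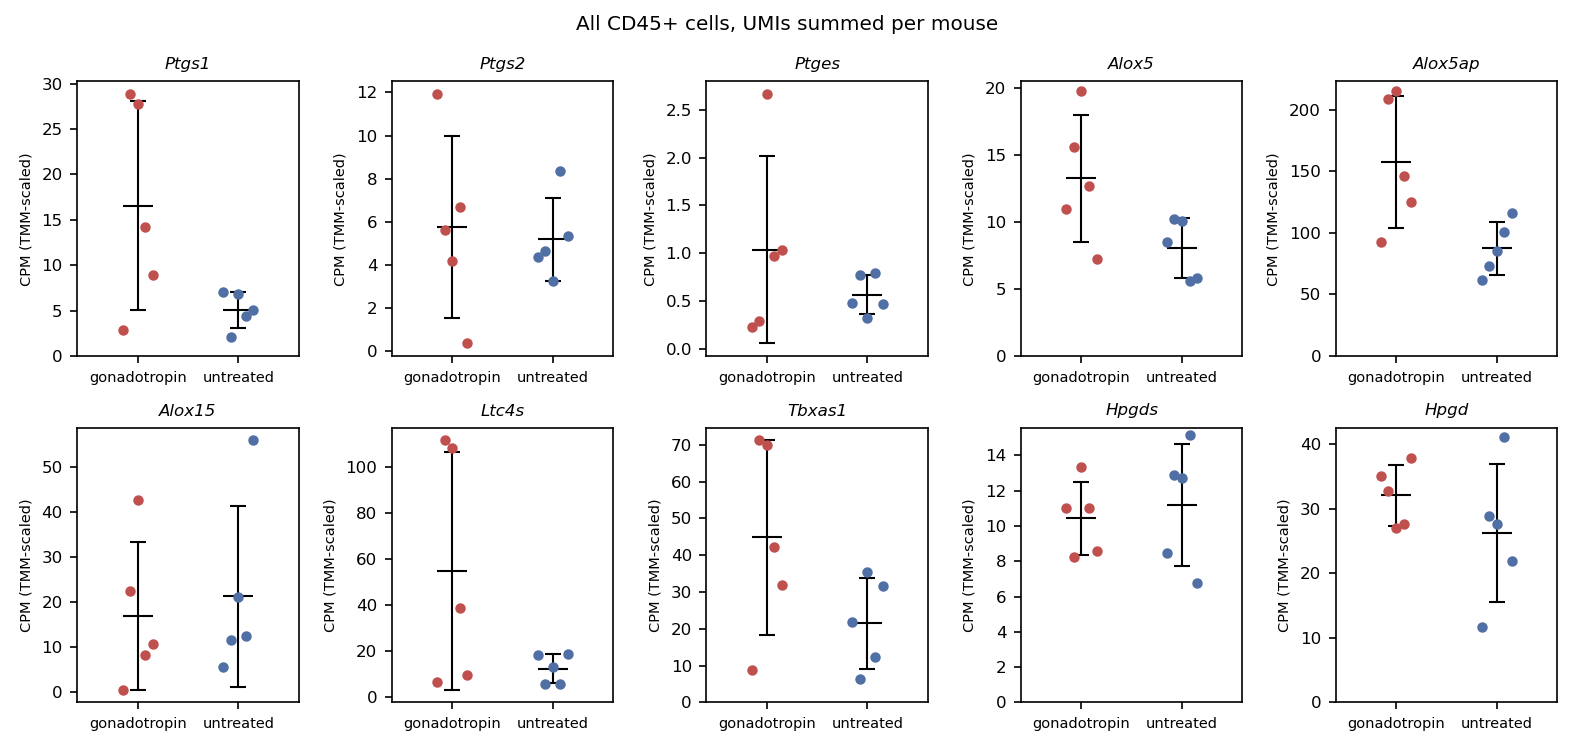
CPM of the 10 genes over all CD45+ cells of each mouse, scaled by TMM, gonadotropin mice left and untreated mice right in each panel. Points are mice (n = 5 per group), the long line is the mean and the bars are 1 SD. In the Ltc4s panel gonadotropin mice 2 and 3 stand at 111 and 108 CPM, while mice 1 and 5 stand at 6.55 and 9.64 CPM among the untreated mice.

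Counts of some cell types also differed between the mice. Fn1 macrophage-like cells numbered 0, 8, 7, 8 and 0 in gonadotropin mice 1 to 5 and 2, 0, 0, 0 and 1 in untreated mice, and peritoneal-type cells 0, 2, 2, 1 and 1 against 0, 1, 2, 1 and 5. All 9 macrophage markers and all 8 neutrophil markers had higher means in gonadotropin mice, with summed levels of 321 to 1136 against 217 to 464 CPM and of 1105 to 1700 against 369 to 1300 CPM. Of the 6 classical monocyte markers 5 did, with sums of 908 to 1320 against 855 to 1245 CPM. Of the 9 peritoneal-type markers 5 did, with sums of 93.8 to 939 against 140 to 502 CPM. The part of the cell mix in the differences above was not tested. The Alox5ap call was lost without gonadotropin mouse 2, 3 or 4 or untreated mouse 1, 2 or 3, with edgeR adjusted p between 0.0594 and 0.0780. In sums over a mouse, more cells of a type and more RNA per cell cannot be told apart.

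Among myeloid cells alone, Alox5ap had nearly the same level in both groups. It measured 707, 989, 870, 933 and 805 CPM in gonadotropin mice and 875, 778, 863, 719 and 807 CPM in untreated mice, a log2 fold change of 0.09 ± 0.11 (SE; edgeR adjusted p = 0.914). None of the 9 enzymes tested passed, by edgeR or by DESeq2, where 0.0461% of 6511 genes did by edgeR. 1 enzyme, Alox15, had an unadjusted p under 0.05 by edgeR.

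Ltc4s in myeloid cells measured 34.7, 525, 443, 244 and 55.7 CPM in gonadotropin mice and 258, 62.9, 136, 34.4 and 137 CPM in untreated mice. Mice 2 and 3 of the gonadotropin group lay above the rest, and the log2 fold change was 1.10 ± 0.63 (edgeR adjusted p = 0.721). With Fn1 and peritoneal-type macrophages left out, a setting chosen after seeing the data, it was -0.96 ± 0.57 (adjusted p = 0.699), and that of Ptgs1 was 0.20 ± 0.49 in place of 0.82 ± 0.48. Alox15 in myeloid cells measured 3.66, 111, 177, 53.1 and 71.9 CPM in gonadotropin mice and 82.5, 130, 215, 88.8 and 419 CPM in untreated mice (-1.23 ± 0.57, adjusted p = 0.681). The groups overlapped for each of these genes.

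**Figure D3:**
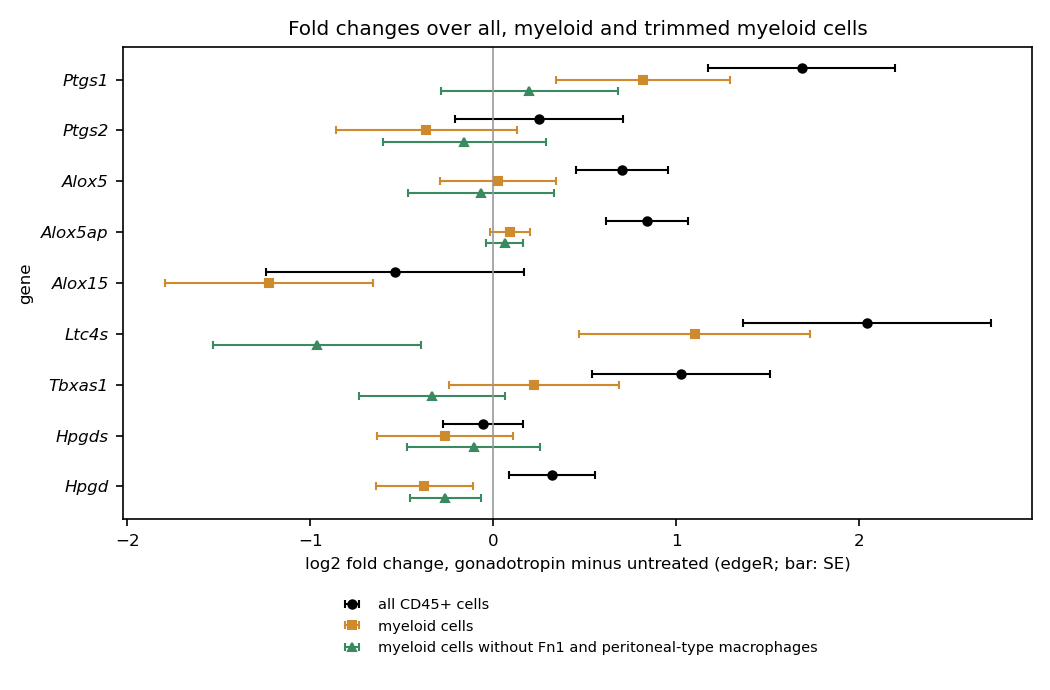
Log2 fold change, gonadotropin minus untreated, of the 9 enzymes tested, with bars of 1 SE from edgeR. Circles are all CD45+ cells, squares myeloid cells and triangles myeloid cells without Fn1 and peritoneal-type macrophages, where Alox15 was too low to be tested. Alox5ap is at 0.84, 0.09 and 0.06, and Ltc4s at 2.04, 1.10 and -0.96.

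Within single myeloid types the cells were few, so the fits took mice with at least 5 cells of a type, and no enzyme passed in any of them by edgeR. Hpgd in classical monocyte-like cells came nearest. It measured 109, 190, 162, 188 and 110 CPM in gonadotropin mice, in 6 to 22 cells each, and 515, 221, 458, 476 and 244 CPM in untreated mice, in 4 to 22 cells each. Every gonadotropin mouse lay below every untreated mouse. Without untreated mouse 2, whose 4 cells were too few to enter, the log2 fold change was -1.34 ± 0.26 (SE, edgeR adjusted p = 0.0529). Of 2001 genes tested 0% passed in this type by edgeR, with 130 at an unadjusted p under 0.05, and 3 genes passed by DESeq2, Hpgd among them (adjusted p = 0.00414). Without a filter on low counts edgeR gave an adjusted p of 0.000156. Leaving out single mice gave adjusted p from 0.00229, without untreated mouse 5, to 0.279, without gonadotropin mouse 5, and it was also under the threshold without gonadotropin mouse 3 (0.0454).

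Marker levels of myeloid types were also summed over all those monocytes of a group, which gives 1 value per group and no spread between mice. These values stood apart in both directions. Of the 42 untreated cells 22 came from mouse 5. The 7 non-classical monocyte markers summed to 447 CPM in gonadotropin and 593 CPM in untreated cells, the 9 macrophage markers to 1288 and 1691 CPM, and the 6 classical markers to 7470 and 6505 CPM. The 6 dendritic markers (cDC2 or Cd209a) summed to 46.6 CPM in gonadotropin and 111 CPM in untreated cells, the 8 Trem2-type markers to 3841 and 3271 CPM, and the 9 peritoneal-type markers to 1180 and 1066 CPM. Their part in the difference was not tested. In non-classical monocyte-like cells Hpgd measured 571, 736, 367, 460 and 583 CPM in gonadotropin mice and 528, 684, 1450, 501 and 583 CPM in untreated mice, of which mice 1 and 3 had 3 such cells each and did not enter the fit. These overlapped, with a log2 fold change of -0.15 ± 0.20 over 5 and 3 mice (edgeR adjusted p = 0.910), in a fit where 0.130% of 2308 genes passed. The difference in change between the 2 monocyte types was not tested.

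In macrophage-like cells as a whole, Alox15 measured 0, 248, 341, 200 and 360 CPM in gonadotropin mice and 348, 1679, 818, 608 and 1398 CPM in untreated mice. Only gonadotropin mouse 5 lay above the lowest untreated mouse. The log2 fold change was -2.09 ± 0.59 (SE, edgeR adjusted p = 0.271), and without a filter on low counts the adjusted p was 2.45e-06. Of 1325 genes tested 0% passed by edgeR, with 92 at an unadjusted p under 0.05, and 15 passed by DESeq2, none of them 1 of the 6 enzymes tested. Of the 9 peritoneal-type cells of the untreated group, which held most of its Alox15, 5 came from mouse 5. Peritoneal-type cells were 6 of 110 macrophage-like cells in gonadotropin and 9 of 52 in untreated mice. Marker sums over all macrophage-like cells of a group have no spread between mice. Peritoneal-type markers summed to 6598 CPM in gonadotropin and 8798 CPM in untreated cells, and Trem2-type markers to 12619 and 21443 CPM. Platelet markers summed to 889 and 2057 CPM, and neutrophil markers to 534 and 157 CPM. Their part in the difference was not tested. Ltc4s measured 217, 1194, 847, 811 and 264 CPM in gonadotropin mice and 575, 677, 352, 216 and 326 CPM in untreated mice (0.64 ± 0.45, adjusted p = 0.913).

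In neutrophil-like cells, where Ptgs2 was highest, it measured 838, 282, 275, 396 and 41.8 CPM in gonadotropin mice and 349, 258, 590, 639 and 495 CPM in untreated mice. The groups overlapped over most of their range. Its log2 fold change over 5 and 4 mice was -0.09 ± 0.50 (SE, edgeR adjusted p = 0.976), and untreated mouse 3, with 2 such cells, was not in the fit. Alox5ap had -0.16 ± 0.20 there. Of 799 genes tested 0% passed by edgeR, with 65 at an unadjusted p under 0.05, and DESeq2 called none either.

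**Figure D4:**
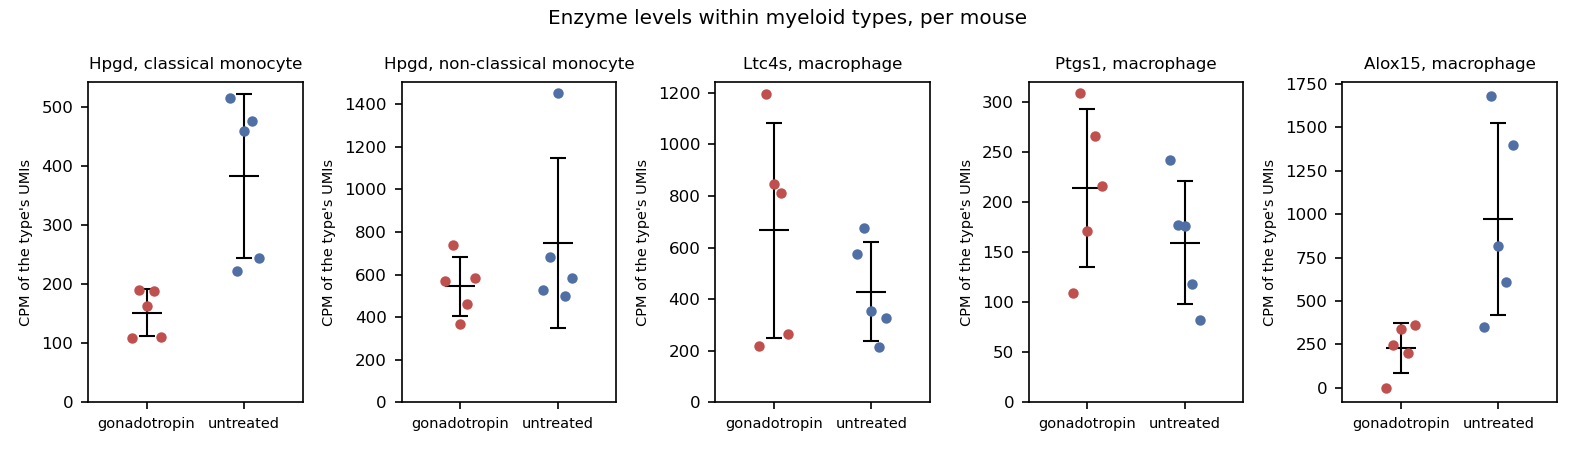
CPM within a myeloid type for each mouse, gonadotropin left and untreated right, for Hpgd in both monocyte types and for Ltc4s, Ptgs1 and Alox15 in macrophage-like cells. Points are mice (n = 5 per group), including mice with fewer than 5 cells that did not enter the fits, and the lines are the mean and 1 SD. Hpgd in classical monocyte-like cells spans 109 to 190 CPM in gonadotropin and 221 to 515 CPM in untreated mice.

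In lymphoid cells only Hpgds had enough UMIs to be tested. It measured 7.52 ± 1.76 CPM in gonadotropin and 9.31 ± 3.27 CPM in untreated mice (SD, n = 5 each), a log2 fold change of -0.18 ± 0.24 (SE, edgeR adjusted p = 0.692) where 12.3% of 10447 genes passed. In B cell-like cells alone it was 0.07 ± 0.36 (edgeR adjusted p = 0.960), where 1.74% of 8212 genes passed. Ltc4s, which lymphocytes are not known to make, stood at 1.91 ± 0.28 CPM in lymphoid cells of gonadotropin mice and 0.67 ± 0.57 CPM in those of untreated mice, beside 54.9 and 12.5 CPM over all cells. It was too low there to be tested.

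The other genes of the pathway were followed as a list of 51, of which 6 had no UMI and 18 had under 50 UMIs in kept cells. Over all CD45+ cells 27 were tested and 3 rose, with none lower, where 9.12% of all genes tested passed and 4.97% as higher. Cmklr1, a receptor for the chemoattractant chemerin that is also described as a receptor for a lipid mediator, had 12.8 CPM in gonadotropin and 5.75 CPM in untreated mice (log2 fold change 1.14 ± 0.32 SE, edgeR adjusted p = 0.0421). Ltb4r1, the high-affinity leukotriene B4 receptor, had 18.3 and 9.84 CPM (0.88 ± 0.26, adjusted p = 0.0481). Abcc4, an exporter of prostaglandins, had 43.7 and 35.1 CPM (0.31 ± 0.09, adjusted p = 0.0481). The list's median log2 fold change was 0.27. In myeloid cells alone the log2 fold changes of Cmklr1, Ltb4r1 and Abcc4 were 0.42 ± 0.47, 0.09 ± 0.18 and 0.37 ± 0.24 (SE; edgeR adjusted p = 0.903, 0.964 and 0.777).

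In lymphoid cells 19 of the list were tested, 4 rose and 1 fell, where 6.71% of all genes tested passed as higher. Cysltr2, a receptor of cysteinyl leukotrienes (0.75 ± 0.16, edgeR adjusted p = 0.00516), Cmklr1 (1.15 ± 0.26, 0.00823), Lta4h, which makes leukotriene B4 (0.29 ± 0.08, 0.0186), and Ltb4r1 (1.48 ± 0.47, 0.0481) were higher, and Cyp4f18, which in mice breaks down leukotriene B4, was lower (-0.58 ± 0.08, 0.000565). The median over the 19 was -0.03. The lymphoid mix differed too, with 14.9% ± 3.89 natural killer (NK) cell-like and 6.57% ± 2.61 B-1 cell-like cells in gonadotropin mice and 7.68% ± 1.93 and 16.1% ± 4.20 in untreated mice (SD, n = 5 each). Within NK cell-like, B cell-like, B-1 cell-like, CD4 T cell-like and CD8 T cell-like cells no gene of the list that was tested passed, where 0.0740%, 1.74%, 0.321%, 0.354% and 0.937% of genes tested did by edgeR. Of the 5 genes above, Lta4h was tested in each of these types, Cyp4f18 in B cell-like and B-1 cell-like cells, Cysltr2 and Cmklr1 in NK cell-like cells and Ltb4r1 in none. In NK cell-like cells the log2 fold change was 0.04 ± 0.21 for Cysltr2 and -0.0034 ± 0.29 for Cmklr1 (SE). In myeloid cells none of 15 tested passed. The largest log2 fold changes there were decreases, of a receptor gene (-1.19 ± 0.30 SE) and an exporter gene (-0.84 ± 0.25 SE), with edgeR adjusted p = 0.238 and 0.390.

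By level, the pathway list filled in steps next to the 10 enzymes. Pla2g7, which breaks down platelet-activating factor, stood at 1003 CPM and Cyp4f18 at 437 CPM in neutrophil-like cells. Ptgis, prostacyclin synthase, was at 492 CPM in peritoneal-type macrophage-like cells, 14 of 15 of which held a UMI. Pla2g4a, the phospholipase that releases arachidonic acid, was highest in Fn1 macrophage-like cells at 122 CPM, as was Cmklr1 at 142 CPM. Lta4h was highest in NK cell-like cells at 128 CPM, Ltb4r1 in ILC2-like cells at 308 CPM and Cysltr1 in Cd209a dendritic-like cells at 154 CPM.

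Barcodes carrying hashtags of more than 1 mouse were left out of all values above, 693 from gonadotropin and 655 from untreated mice, and held 34.0% of all UMIs. For several enzymes they held most of the molecules, at 76.0% of the UMIs of Ltc4s, 71.6% of Ptgs1, 64.9% of Tbxas1, 54.6% of Alox5ap, 53.8% of Alox5 and 53.3% of Alox15. For Ptges they held 48 of its 80 UMIs. For Hpgd they held 36.3%, for Hpgds 26.1% and for Ptgs2 15.7%. Of the doublets, 95 (13.7%) from gonadotropin and 15 (2.29%) from untreated mice had UMIs of at least 3 peritoneal-type macrophage markers, against 31 and 14 kept cells. Those doublets held 3236 of the 3868 UMIs of Ltc4s in gonadotropin and 185 of 232 in untreated doublets. The levels of these macrophage genes in kept cells are thus those of the cells that carried 1 tag.

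**Figure D5:**
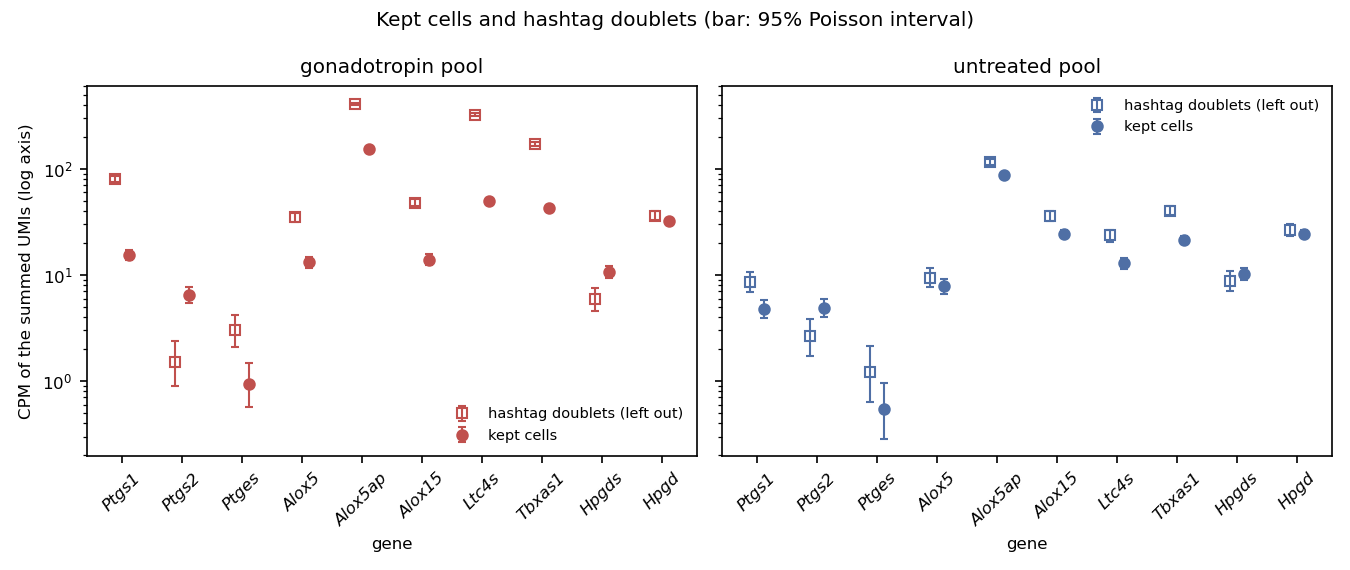
CPM of the 10 genes, on a log axis, in hashtag doublets (squares) and kept cells (circles) of the gonadotropin library (left panel) and the untreated library (right panel); bars are 95% Poisson intervals and cover counting error only. In the gonadotropin pool Ltc4s is at 322 CPM in doublets, against 23.6 CPM in doublets of the untreated pool.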

How the data were processed

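Per the labels' protocols, sorted ovarian CD45+ cells were tagged with TotalSeq-B hashtags, pooled by group and run as 10x Genomics 3' libraries. Seurat, Cell Ranger, bcl2fastq and the build mm10 are named, without versions, per the submitters' processing notes. The deposited values are raw UMI counts per gene and barcode, without normalization by the authors, and the hashtag calls used are those of the deposited cell table.

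Single-hashtag barcodes were kept where they held 500 genes or more and less than 10% of their UMIs were mitochondrial. Barcodes that the hashtag calls name doublets (693 in the gonadotropin pool, 655 in the untreated one) or negatives (69 and 20) were left out. Cells were clustered with scanpy 1.11.5 and igraph 0.11.9 (2000 variable genes, 30 components, 15 neighbours, Leiden resolution 0.2, large clusters again at 0.5) without the 10 genes and the 51 pathway genes. The 46 clusters were named by fixed markers of each type, and the levels of 1 type are not reported here. Gating each cell by its own markers gave the same type for 76.8% of cells.

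UMIs were summed per mouse and tested with edgeR 4.0.16 (filterByExpr, TMM, quasi-likelihood F test, R 4.3.3) over all genes, at a Benjamini-Hochberg adjusted p of 0.05. CPM over all, myeloid and lymphoid cells are scaled by TMM; CPM within a type are plain. Types with too few mice of at least 10 cells were fitted with mice of at least 5. DESeq2 1.42.0, its size factors, no filter, other cell sets, other clusterings and leaving out each mouse were alternatives. The fits were tested on simulated data. With 2-fold changes, 82 of 96 changed genes were recovered beside 15 false calls over all CD45+ cells, and 69 of 94 beside 12 in myeloid cells. In both sets the false calls were a larger share of the calls than the threshold of 0.05 sets, so a call near it may be false. In single myeloid types recovery of 2-fold changes ran from 47.5% (macrophage-like) to 82.4% (classical monocyte-like). A type in which no enzyme passed may thus still hold such a change. With 4-fold changes recovery was 97.5% or more in every set. The mice are separate animals, but share 1 library per group, so p-values cover the spread between mice only.

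The genes, lists and markers were chosen with earlier results of these data known. By the rule for named genes all 10 enzymes are accounted for, pathway genes are named when they pass a test or, up to 10, for a high level in a type, and the 3 genes with the most similar levels are named for each enzyme. Promoters are those of RefSeq (GRCm38.p6), and gene positions are of the same build, matched by symbol.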

Additional observations from a re-analysis of the deposited data

Results flagged for a closer look

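Among the 40 groups of 5 mice looked at, 2 held a mouse far from the others of its group, and chance alone gives about 1 in 20. Hpgds in B cell-like cells stood at 32.4 CPM in untreated mouse 4, where the next highest untreated mouse had 10.3 CPM. Alox5 in myeloid cells stood at 46.4 CPM in gonadotropin mouse 5, where the next lowest gonadotropin mouse had 67.8 CPM.

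Several enzymes stood higher in hashtag doublets, which enter no comparison, of the gonadotropin than of the untreated pool. How many of all genes differ in this way is not given here, so the values are not read as particular to the enzymes. Doublets with UMIs of at least 3 peritoneal-type markers were 13.7% of the gonadotropin and 2.29% of the untreated doublets. Poisson intervals did not overlap for the enzymes listed next, up to Alox15. Ltc4s had 322 CPM in gonadotropin and 23.6 CPM in untreated doublets, Ptgs1 80.9 and 8.63 CPM, and Tbxas1 172 and 40.4 CPM. Alox5ap had 408 and 116 CPM, Alox5 34.8 and 9.45 CPM, Hpgd 36.3 and 26.6 CPM, and Alox15 48.1 and 36.1 CPM. The intervals overlapped for Ptges (2.10 to 4.15 CPM in gonadotropin and 0.630 to 2.13 CPM in untreated doublets), Ptgs2 (0.889 to 2.37 and 1.73 to 3.87 CPM) and Hpgds (4.62 to 7.46 and 6.99 to 10.8 CPM). Each pool is 1 library, so these differences have no replicate check. In doublets with UMIs of at least 3 peritoneal-type markers, Ltc4s stood at 1104 and 502 CPM and Alox15 at 193 and 958 CPM in the gonadotropin and untreated pools; in the other doublets Ltc4s stood at 69.7 and 4.96 CPM.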

How the results depend on the processing

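Over all CD45+ cells 1 enzyme passed, and 3 did without a filter on low counts (Alox5ap, Ptgs1 and Ltc4s), 2 by DESeq2 and 2 with all single-hashtag barcodes (Alox5ap and Ptgs1 in both), 0 in lymphoid cells only and 0 in myeloid cells only. Leaving out 1 mouse gave 0 to 3 enzymes, where 682 to 1063 of all genes passed. As reported, 9.12% of all genes tested passed over all CD45+ cells. That share is not given here without a filter, by DESeq2 or with all single-hashtag barcodes. The counts of 2 and 3 enzymes thus have no background beside them. In classical monocyte-like cells 0 passed, against 1 (Hpgd) without a filter and 1 by DESeq2, and 0 to 1 without 1 mouse; in macrophage-like cells 0 passed, against 1 (Alox15) without a filter. The cause was not tested.

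Of 489 recomputed log2 fold changes of the enzymes 428 kept their sign and their side of the threshold, 42 changed sign, 12 passed the threshold in the alternative only and 7 no longer passed. None of those that changed sign had passed as reported. Over all CD45+ cells, Ptgs2 was -0.37 and Hpgd -0.38 in myeloid cells only. In myeloid cells, Alox5 was -0.011 by DESeq2, and with Fn1 and peritoneal-type macrophages left out, an alternative chosen after seeing the data, Alox5 was -0.069, Ltc4s -0.96 and Tbxas1 -0.33. In neutrophil-like cells without a filter, Ptgs2 was 0.14 and Alox5ap 0.019. In macrophage-like cells Alox5ap was 0.17 without a filter, 0.0073 with all single-hashtag barcodes and 0.047 with cells gated one by one, and Hpgd was -0.19 with all single-hashtag barcodes. In B cell-like cells Hpgds was -0.21 by DESeq2, -0.13 with gated cells and -0.045 at a Leiden resolution of 0.5.

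Leaving out 1 mouse, the sign changed over all CD45+ cells for Alox15 (-1.17 to 0.34), Hpgds (-0.22 to 0.055) and Ptgs2 (-0.16 to 0.51), and in myeloid cells for Alox5 (-0.18 to 0.29), Hpgds (-0.59 to 0.022) and Tbxas1 (-0.026 to 0.51). It also changed for Alox5ap in classical (-0.063 to 0.15) and non-classical monocyte-like (-0.066 to 0.35) and macrophage-like cells (-0.16 to 0.13), Hpgd in macrophage-like cells (-0.014 to 0.89) and Ptgs2 in neutrophil-like cells (-0.63 to 0.20).

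Counts over all genes moved more. In myeloid cells 3 passed, against 28 by DESeq2, 33 without a filter, 0 with gated cells and 1 with Fn1 and peritoneal-type macrophages left out. Without a filter the counts were 13 for neutrophil-like, 18 for classical and 28 for non-classical monocyte-like, 86 for macrophage-like, 301 for B cell-like, 94 for B-1 cell-like, 30 for NK cell-like, 117 for CD4 T cell-like and 82 for CD8 T cell-like cells, against 0, 0, 3, 0, 143, 23, 4, 20 and 41 as reported. DESeq2 called 3 in classical monocyte-like, 15 in macrophage-like, 38 in B-1 cell-like, 14 in NK cell-like, 35 in CD4 T cell-like and 65 in CD8 T cell-like cells. Gated cells gave 1 in non-classical monocyte-like, 223 in B cell-like, 2 in NK cell-like and 13 in CD4 T cell-like cells. A Leiden resolution of 0.5 gave 53 in CD4 T and 63 in CD8 T cell-like cells, where mice with at least 20 cells gave 27 and all single-hashtag barcodes 22. Leaving out 1 mouse gave 682 to 1063 over all CD45+ cells, 834 to 1370 in lymphoid, 1 to 8 in myeloid, 57 to 391 in B cell-like, 14 to 25 in B-1 cell-like, 2 to 5 in NK cell-like, 3 to 43 in CD4 T cell-like, 12 to 49 in CD8 T cell-like, 0 to 3 in classical and 0 to 10 in non-classical monocyte-like cells. Of 72 levels by type 13 moved beyond their interval, and 28 of 37 shares did so on thinning to 2000 UMIs. No paired analysis was possible because the mouse numbers are only names and each group is 1 library. Within myeloid types 5 to 29 cells a mouse in the fits limit the precision, and Ptges could not be tested.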
